A study of Mus musculus with 4 samples.

Results

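Red cell precursors were picked out of 3 mouse single-cell RNA libraries by their haemoglobin RNA. A barcode, the tag of 1 droplet, was counted as erythroid when the adult globin genes Hba-a1, Hba-a2, Hbb-bs and Hbb-bt gave at least 10% of its unique molecular identifiers (UMIs, tags of single RNA molecules) and Alas2 gave at least 1. It also needed at least 500 UMIs, at least 250 genes and at most 10% mitochondrial UMIs, and an aged brain barcode with more UMIs in the aged spleen library was dropped. The rule found 99 barcodes among the 26210 that passed those filters: 59 of 13662 in the aged brain, 29 of 5647 in aged spleen and 11 of 6901 in young spleen. The study made 1 library each from the brain and the spleen of aged and of young mice, in all cases from CD45hi cells (CD45 marks white blood cells and is lost as red cell precursors mature). The sources used here do not state strain, genotype, age in numbers, sex or how many animals were pooled. For all 4 libraries the labels describe tamoxifen given 4 weeks before tissue was taken, in work that followed tdTomato-marked NK cells, and they name the cells neuroblasts, although it is red cell RNA that marks the barcodes described here. The rule leaves out the young brain, where 17 barcodes met its conditions and 15 of them had more UMIs in the aged spleen.

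Erythroblasts arise from progenitors that carry the receptor Kit, divide a few times while Gata1 and Klf1 switch on globin, haem synthesis and membrane genes, and then leave the cell cycle. The nucleus is expelled, and the reticulocyte that remains still holds globin RNA while its ribosomes and mitochondria are broken down. In adult mice the bone marrow is the main site, the spleen red pulp is a second one, and the brain makes no red cells, although its vessels hold circulating reticulocytes.

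The adult alpha chain is encoded by Hba-a1 and Hba-a2 on chromosome 11 and the adult beta chain by Hbb-bs and Hbb-bt on chromosome 7, and the 4 genes define the barcodes described here. The 100 bases before the RefSeq start of 3 of them are printed from the RefSeq promoter table on GRCm38.p6, 5′ to 3′ on the gene's strand, because RNA of these genes chose the barcodes. Capitals mark matches on either strand to 4 motifs. CCAAT is the core of the box of that name, and ATATAA is a form of the TATA box. CACCC belongs to the type of site that Klf1 binds, and AGATAA to the type that Gata1 binds.
Hba-a2, chr11:32296392-32296491, plus strand: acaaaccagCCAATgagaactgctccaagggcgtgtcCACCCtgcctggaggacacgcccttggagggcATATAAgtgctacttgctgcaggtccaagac
Hbb-bs, chr7:103827929-103828028, minus strand: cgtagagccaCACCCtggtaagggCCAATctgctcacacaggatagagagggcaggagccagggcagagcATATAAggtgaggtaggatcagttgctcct
Hbb-bt, chr7:103813924-103814023, minus strand: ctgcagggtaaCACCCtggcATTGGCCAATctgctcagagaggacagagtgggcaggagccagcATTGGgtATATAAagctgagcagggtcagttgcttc
The Hba-a1 window was identical to that of Hba-a2 over 97 of 97 aligned bases, and those of Hbb-bs and Hbb-bt matched at 73 of 99. ATATAA ended 23 to 26 bases before the start in the 4 windows, and each window held CCAAT and CACCC on the gene's strand. In Hbb-bt, CCAAT was also found on the opposite strand, where it reads ATTGG, at 2 places. No window held AGATAA. Of 32851 promoters of the same length, 18.9% held CCAAT, 3.74% ATATAA, 27.2% CACCC and 3.59% AGATAA. GENCODE M21, the gene annotation used here for coordinates, begins all 4 genes further upstream, inside the window for Hba-a2 and Hbb-bt and before it for Hba-a1 and Hbb-bs.

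Members were chosen by their measured globin share and Alas2 UMIs, so those values are a description. The lowest globin share inside was 11.9% for the aged brain, 10.9% for the aged and 13.01% for the young spleen, and the highest outside among barcodes with Alas2 was 0.148%, 7.51% and 5.62%. A single Alas2 UMI let in 4, 2 and 1 barcodes. Free RNA, read from barcodes with at most 100 UMIs, was 0.515% globin in the aged brain and 0.519% and 0.159% in aged and young spleen, far below the lowest member. Library totals were 57011537 UMIs for the aged brain and 40628623 and 39866955 for aged and young spleen. Barcodes are shared between libraries: 4856 of the 5647 filtered aged spleen barcodes also passed in the young brain, among them 15 of the 29 erythroid ones, each with more UMIs in the aged spleen (median 5.12 times). In the young spleen, 1 of the 11 erythroid barcodes had more UMIs in the aged spleen, and no aged brain member passed in another library. With 1 library per group no test was possible, so all intervals below are 95% intervals for counting error only, and an age or tissue difference cannot be told apart from a difference between libraries.

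Slc4a1 and Car2, erythroid markers outside the rule, were found in nearly all spleen members and in some of the aged brain ones, while Klf1 and Gata1 were found in fewer. Slc4a1 (band 3, the anion exchanger of the red cell membrane) was found in 28 of 29 aged spleen, 11 of 11 young spleen and 24 of 59 aged brain members. Car2 (carbonic anhydrase 2) was found in 28, 11 and 24 of them. Klf1 was found in 16, 1 and 5, and Gata1 in 16, 1 and 5. To take out differences in total depth, each barcode was thinned to 500 UMIs, globins included, which none fell short of. Members with a higher globin share keep fewer other UMIs this way, so depth outside the globins was not made equal. Slc4a1 was then found in 93.1% of aged spleen members (77.2 to 99.2), 72.7% of young spleen members (39.0 to 94.0) and 16.9% of aged brain members (8.44 to 28.97). Ptprc, the gene of the sorted antigen CD45, was found in 5 of 29 aged spleen, 3 of 11 young spleen and 14 of 59 aged brain members. Kit gave 0 UMIs in all 99 barcodes, and 0 of 29 allows a share of up to 11.9% of aged spleen members with a Kit UMI (exact upper limit), which limits detection and not expression. Embryonic globin genes gave 1 UMI in a young spleen member and 0 elsewhere. B-like barcodes of the same spleens, which should lack red cell genes, held Slc4a1 in 0.214% of 1870 (aged) and 0% of 2462 (young) after the same thinning, with median depths of 4372 and 3923 UMIs against 4977 and 3003 for the members. The aged brain held 1 B-like barcode, so its shares have no such background.

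Erythroid barcodes made up a larger share of the aged than of the young spleen library, 0.514% (0.344 to 0.737) against 0.159% (0.0796 to 0.285), a ratio of 3.22. The ratio was 12.17 without members at shared barcodes, where fewer filtered barcodes were counted too, and 5.19 with at most 5% mitochondrial UMIs. Because CD45 sorting and the UMI minimum decide which precursors enter, these shares describe the sorted libraries and not the tissue. The aged brain held 0.432% (0.329 to 0.557), counting all 59 members. These include 18 whose pooled markers go against the erythroid label, as described below. Counting only members with under 3000 UMIs outside the globins, a limit chosen after the values were seen, left 16 aged and 11 young spleen members and a ratio of 1.78.

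Single members of the aged brain had a higher median globin share than those of either spleen, but pooled UMIs put the young spleen highest. The median share was 82.4% in the aged brain (11.9 to 92.1) against 47.0% (10.9 to 66.4) for aged and 54.7% (13.01 to 89.3) for young spleen, so the 3 ranges overlapped widely. Over the pooled UMIs of all members globin gave 62.6%, 45.4% and 66.5%. At a share of 80% or more lay 30 of 59 aged brain, 0 of 29 aged spleen and 1 of 11 young spleen members. Alpha chain genes gave 35.6% of globin UMIs in the aged brain against 40.2% for aged and 41.6% for young spleen, so beta chain genes gave most globin UMIs in all 3. Single members departed from this, with an alpha share of up to 95.2% in 1 aged spleen and 84.7% in 1 young spleen barcode. Hbb-bt, the minor adult beta gene, gave 21.4%, 26.9% and 25.6% of beta UMIs. Hba-a2 gave 41.6%, 34.3% and 46.5% of alpha UMIs, a split that is uncertain because the 2 genes are near-identical copies.

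**Figure D1:**
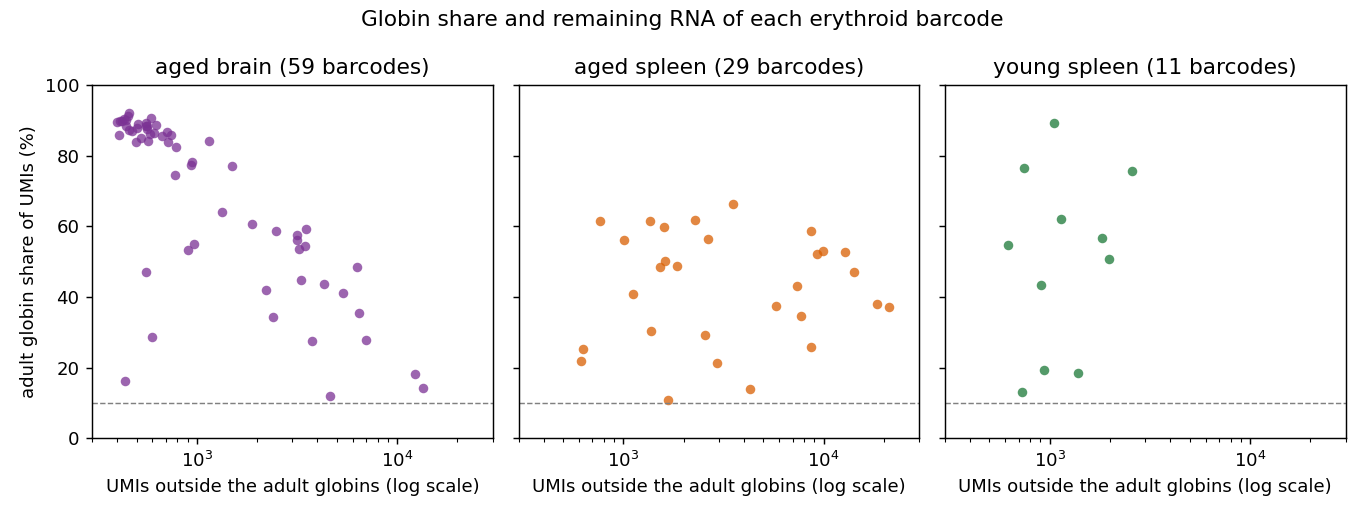
Adult globin share of UMIs (%) against UMIs outside the adult globins (log scale) for each erythroid barcode, with 1 panel per library and a dashed line at the 10% minimum. Aged brain barcodes crowd at 80% or more with few other UMIs, aged spleen barcodes reach 21128 other UMIs, and the 11 young spleen barcodes stay at or below 2576.

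Some aged spleen members held more RNA outside the globins than any young one. UMIs outside the globins ran from 617 to 21128 in the aged spleen (median 2640) and from 619 to 2576 in the young spleen (median 1051). From 3000 upward lay 13 of 29 aged and 0 of 11 young members. This limit was chosen after the values were seen and lies above the highest young member, so the young count follows from it. All 13 of these RNA-rich barcodes also passed the filters in the young brain library, against 2 of the 16 aged members below 3000. Age, library and RNA content cannot be told apart here.

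Against the young spleen, the pooled aged spleen members were higher for cell cycle, ribosome and respiratory chain genes and lower for genes of late maturation. Levels are UMIs per 1e6 member UMIs outside the 4 adult globins (CPM), from 157537 such UMIs in the aged against 13885 in the young spleen. Among the 565 genes with at least 50 UMIs over both, 197 (34.9%) were at least 2-fold higher and 116 (20.5%) at least 2-fold lower in the aged spleen, with a median log2 ratio of 0.50 over all of them. The balance depended on scaling: the split was 304 higher to 49 lower per 1e6 of all UMIs, and 143 to 158 after median-of-ratios scaling, which moved the median of all genes to 0.16. It also rested on the RNA-rich barcodes. Among members under 3000 UMIs outside the globins, 116 genes reached the minimum, of which 6 (5.17%) were higher and 6 (5.17%) lower, with a median of -0.15, and without members at shared barcodes 3 of 101 were higher and 6 lower.

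Haem synthesis genes other than Alas2 summed to 15012 CPM in the aged and 12243 CPM in the young spleen. The ratio was 1.23 (1.05 to 1.44), and it was 1.08 (0.892 to 1.301) under 3000. Of 11 measured, 4 were at least 2-fold higher and 1 lower, against 34.9% and 20.5% of all genes, and the median log2 ratio was 0.36, below the 0.50 of all genes. Alas2, which makes the first committed intermediate and was used by the rule, had 3244 CPM in the aged against 6914 CPM in the young spleen. With it the list summed to 18256 and 19157 CPM, and the median was 0.20. Cpox, a mitochondrial enzyme of a later step, was higher in the aged spleen at 2666 against 720 CPM, 3.70-fold (1.99 to 7.78), and stayed 2.28-fold higher (1.12 to 5.09) among members under 3000. Fech, which inserts iron into the ring, was lower at 1676 against 3025 CPM, a ratio of 0.554 (0.399 to 0.787), with 0.594 (0.382 to 0.925) under 3000.

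Iron genes gave no single direction. Their median log2 ratio was -0.43 over 6 measured genes, 0 at least 2-fold higher and 1 lower, next to 34.9% and 20.5% of all genes, and it was 0.53 with a globin minimum of 5%. That minimum added 1 barcode per spleen and raised the young total from 13885 to 27878 UMIs. The summed ratio of the list was 0.907, with an interval of 0.804 to 1.03 that included 1. Tfrc, the transferrin receptor, had 2533 CPM in the aged against 3241 CPM in the young spleen, and the interval of its ratio of 0.781 was 0.573 to 1.09, which included 1. Slc25a37 (mitoferrin), which carries iron into mitochondria, had 4215 and 7130 CPM, a ratio of 0.591 (0.478 to 0.738), but 0.844 under 3000 with an interval of 0.651 to 1.10. The ferritin heavy chain Fth1 went the other way, with 6633 against 3457 CPM and a ratio of 1.92 (1.44 to 2.62). Its level was 7496 CPM in the RNA-rich aged members and 2188 CPM in the other aged ones, so the aged barcodes of low RNA lay below the young spleen. Ncoa4, the receptor that sends ferritin for breakdown, had 336 and 1008 CPM, a ratio of 0.334 (0.183 to 0.651), but 0.697 under 3000 with an interval of 0.328 to 1.52.

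Few membrane genes differed by 2-fold, and erythroid transcription factors were level in sum. The membrane and skeleton list had 39883 CPM in the aged and 47821 CPM in the young spleen. The ratio was 0.834 (0.770 to 0.905), and 1.08 (0.980 to 1.18) under 3000. Of its 25 measured genes 3 were at least 2-fold higher and 2 lower, 12% and 8% against 34.9% and 20.5% of all genes (median log2 ratio 0.09). Slc4a1 had 6335 and 10947 CPM, a ratio of 0.579 (0.487 to 0.691), but 1.06 (0.869 to 1.297) under 3000. Rhd, the Rh antigen, had 2069 and 1945 CPM. Epb41, the protein 4.1 that ties spectrin to the membrane, was lower in the aged spleen at 1358 against 5329 CPM, a ratio of 0.255 (0.195 to 0.337), but 0.931 (0.694 to 1.26) under 3000. The transcription factor list had 8208 and 8210 CPM, with 4 of 13 measured genes higher and 2 lower, shares of 30.8% and 15.4% that lay near those of all genes. Within it Zfpm1 (FOG1, the partner of Gata1) had 857 against 144 CPM from 135 and 2 UMIs, a ratio of 5.95 (1.62 to 49.6), but 2.71 under 3000 with an interval of 0.578 to 25.5. Lmo2 had 813 and 1512 CPM, a ratio of 0.537 (0.337 to 0.898), and 0.491 (0.2496 to 0.959) under 3000. Klf1 had 91 UMIs in the aged against 2 in the young spleen, and its 4.01-fold ratio had an interval of 1.08 to 33.6, while under 3000 the ratio was 1.36 (0.222 to 14.2). The direction of these list medians followed the scaling: after median-of-ratios scaling the medians were -0.14 for haem (Alas2 included), -0.24 for membrane and -0.25 for transcription factor genes, and per 1e6 of all UMIs 0.90, 0.80 and 0.79.

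Genes of organelle clearance and ubiquitin conjugation, which are known to be high in late erythroblasts and reticulocytes, were lower in the aged spleen. Of 23 measured genes 16 were at least 2-fold lower and 1 higher, against 20.5% and 34.9% of all genes, and the median log2 ratio was -1.37. The summed level was 19964 CPM against 57328 CPM, a ratio of 0.348 (0.322 to 0.377). Mkrn1, a ubiquitin ligase, had 1212 and 7562 CPM, a ratio of 0.1603 (0.126 to 0.205). Xpo7, a nuclear export receptor used when the red cell nucleus condenses, had 1733 and 8714 CPM, a ratio of 0.199 (0.16 to 0.248). Bnip3l (Nix), the receptor for mitochondrial removal, had 698 and 2017 CPM, a ratio of 0.346 (0.227 to 0.545), but 0.620 under 3000 with an interval of 0.362 to 1.07. Isg20, an RNA exonuclease, had 1339 and 1584 CPM, with an interval of 0.544 to 1.38 that included 1.

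Most of that difference lay between RNA-rich and RNA-poor barcodes of the aged spleen itself. The clearance list stood at 15492 CPM in the 13 RNA-rich aged members, 43013 CPM in the other 16 and 57328 CPM in the 11 young ones, and the ratio of the last pair was 0.7503 (0.684 to 0.823). Xpo7 stood at 326, 8985 and 8714 CPM in these 3 sets. Tmcc2, a membrane protein of the endoplasmic reticulum, stood at 432, 10704 and 10083 CPM. For these 2 genes the ratio of aged to young was 1.03 and 1.06 under 3000, so the pooled direction did not hold there. Mkrn1 stood at 864, 3008 and 7562 CPM and kept a ratio of 0.398 (0.293 to 0.539). Ubb, a ubiquitin gene, stood at 2236, 2383 and 5618 CPM and kept 0.424 (0.298 to 0.601).

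**Figure D2:**
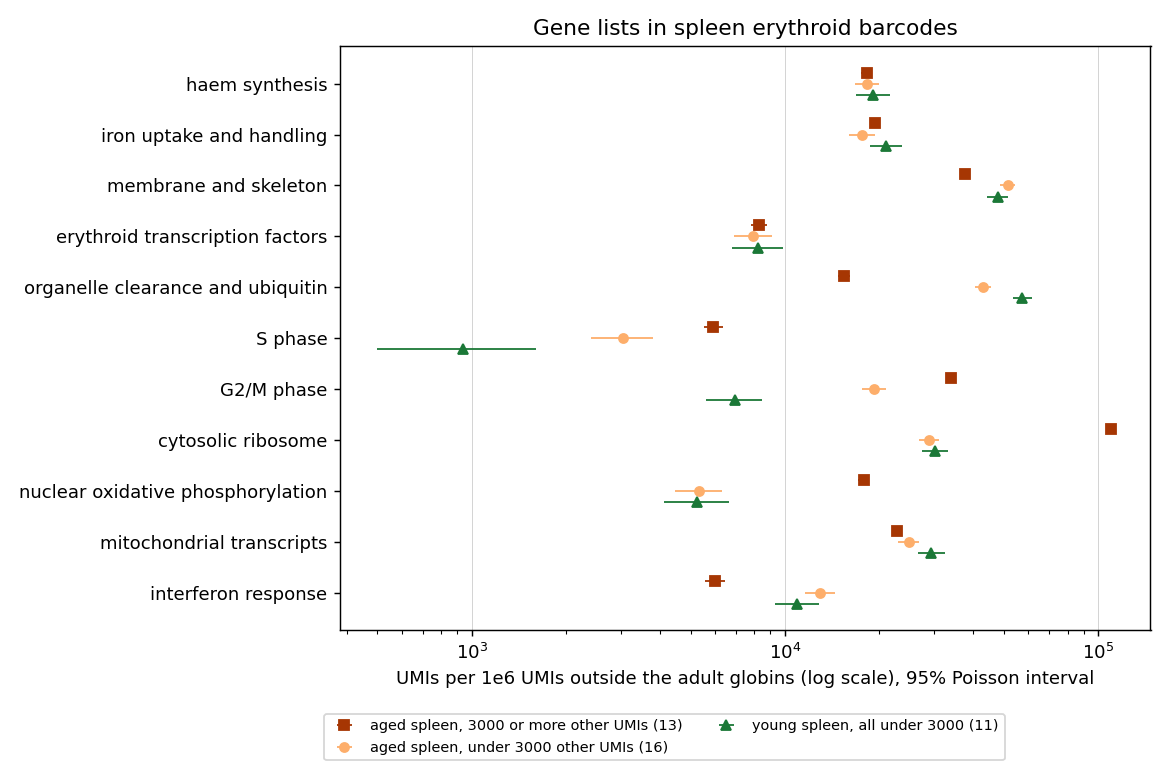
Summed level of 11 gene lists in UMIs per 1e6 UMIs outside the adult globins (log scale) with 95% Poisson intervals, for RNA-rich aged spleen barcodes (squares), other aged spleen barcodes (circles) and young spleen barcodes (triangles). Ribosome and respiratory chain genes coincide in the last 2 sets at 28949 and 30248 CPM and at 5313 and 5257 CPM, and lie apart from the RNA-rich set at 110535 and 17910 CPM.

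Bpgm followed the order of the clearance list across the 3 sets, but Prdx2 and Pim1, listed below, did not. Bpgm makes 2,3-bisphosphoglycerate, the effector that lowers the oxygen affinity of haemoglobin. It had 86 UMIs in 17 of 29 aged and 66 UMIs in 10 of 11 young members, or 546 against 4753 CPM, a ratio of 0.115 (0.0824 to 0.161). Its level was 129 CPM in the RNA-rich aged members, 2696 CPM in the other aged members and 4753 CPM in the young spleen, and the ratio under 3000 was 0.567 (0.399 to 0.807). Fam46c, a poly(A) polymerase, gave a ratio of 0.1801 (0.134 to 0.243), and 0.597 (0.426 to 0.837) under 3000. The antioxidant enzyme genes Cat (catalase) and Gpx1 (glutathione peroxidase) gave 0.122 (0.0671 to 0.225) and 0.582 (0.498 to 0.682), while Prdx2 (peroxiredoxin 2) gave 1.48 (1.14 to 1.95) and its ratio under 3000 was 0.614 (0.428 to 0.881). The survival gene Bcl2l1 (Bcl-xL), a target of erythropoietin signalling, gave 0.159 (0.0913 to 0.286), and its ratio under 3000 was 0.620 with an interval of 0.331 to 1.17. Pim1, a kinase gene of the same pathway, gave 0.391 (0.252 to 0.631) in all members and 1.11 (0.673 to 1.86) under 3000. The receptor Epor gave 57 UMIs in the aged against 3 in the young spleen, with an interval of 0.545 to 8.36.

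**Figure D3:**
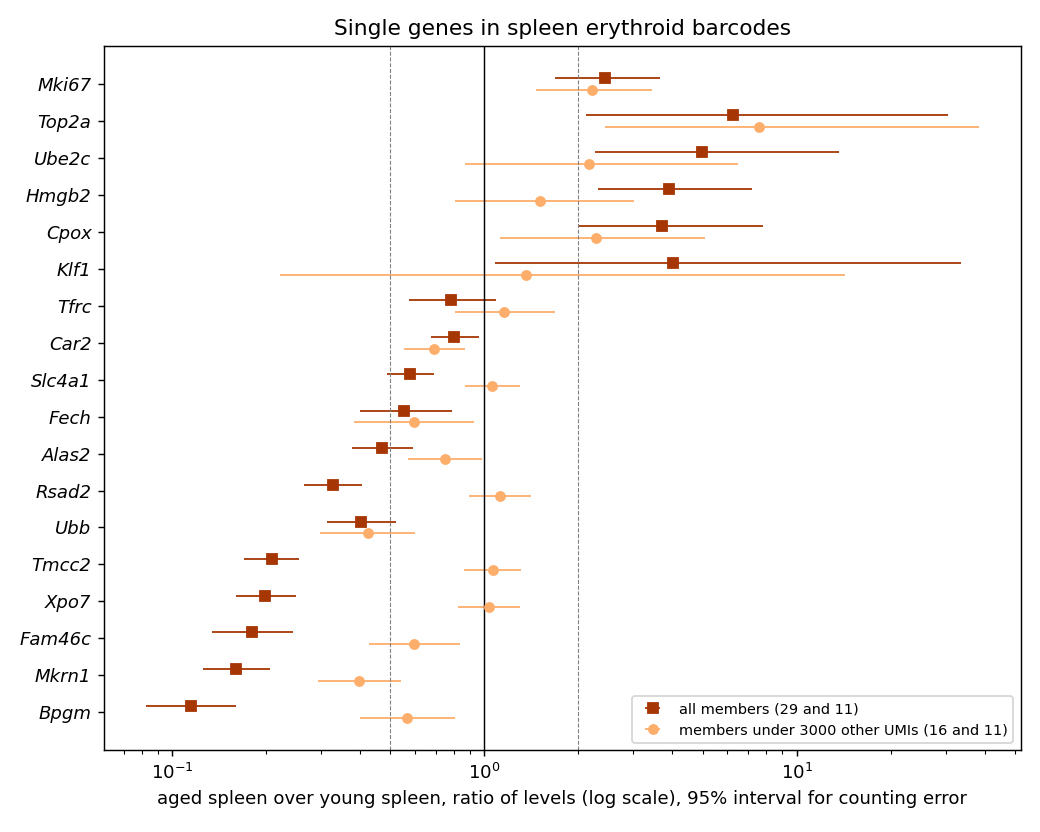
Ratio of aged to young spleen level (log scale) with 95% counting intervals for 18 genes, in all members (squares) and in members under 3000 UMIs outside the globins (circles). Dashed lines mark 2-fold. Xpo7, Tmcc2, Slc4a1 and Rsad2 lie below 1 in all members and between 1.03 and 1.12 in the smaller set, while Mkrn1, Bpgm, Fam46c and Ubb stay below 1 in both.

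Ribosome and respiratory chain genes were higher in the aged spleen. Of 75 measured ribosomal protein genes 64 were at least 2-fold higher and 0 lower, against 34.9% and 20.5% of all genes, with a median log2 ratio of 1.66, and the list summed to 97279 CPM against 30248 CPM. Among nuclear genes of oxidative phosphorylation 10 of 20 (50%) were higher and 0 lower (median 1.07), and the sums were 15863 and 5257 CPM. These differences were not seen under 3000, where the summed ratios were 0.957 (0.848 to 1.08) and 1.01 (0.755 to 1.36). Transcripts of the mitochondrial genome leaned the other way, at 23188 against 29384 CPM, with 0 of 8 measured genes higher and 1 (12.5%) lower. The direction for ribosomal genes changed with 1 added barcode per spleen. A globin minimum of 5% let these in and turned the median log2 ratio of the ribosomal genes to -0.42. It raised the young total from 13885 to 27878 UMIs and the aged total from 157537 to 174918, so the young barcode weighed more in its library. Free RNA held more ribosomal protein RNA than the members, 173187 CPM in the aged and 206308 CPM in the young library, and its part in the members' values was not tested.

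Rsad2 (viperin) and Isg15, listed as interferon response genes, did not move together. Rsad2 had 423 UMIs in 23 of 29 aged and 114 UMIs in 11 of 11 young members, or 2685 against 8210 CPM, a ratio of 0.327 (0.265 to 0.406), and the ratio was 1.12 (0.890 to 1.41) under 3000. Isg15 had 2019 and 1296 CPM, with an interval of 0.969 to 2.66. Of 34 genes on the list 3 reached the minimum of 50 UMIs. Of the stress lists, integrated stress response had a summed ratio of 1.05 (0.775 to 1.45), heat shock 1.15 (0.754 to 1.85) and immediate early genes 0.832 (0.577 to 1.24), all with intervals that included 1. Among them Atf4, the factor that carries the integrated stress response, had 895 against 360 CPM, and Eif2ak1, the haem-regulated kinase upstream of it, 635 against 1512 CPM. Under 3000 their ratios were 1.19 (0.382 to 4.38) and 0.956 (0.545 to 1.72), and without shared barcodes both directions reversed, at 0.661 and 1.25. Of 4 measured cell cycle inhibitors Rb1 and Cdkn2d were at least 2-fold higher, from 52 and 50 UMIs against 1 each, with intervals that included 1, and the list's summed ratio was 0.831 (0.591 to 1.20). Cdkn1b (p27) was lower in the aged spleen, at 355 against 1080 CPM and a ratio of 0.329 (0.184 to 0.626), and the ratio under 3000 was 1.05.

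Cycling genes set the aged spleen apart from the young spleen in the pooled counts. The S phase list had 5446 CPM in the aged against 936 CPM in the young spleen, 5.82-fold (3.38 to 10.97), and the G2/M list 31618 and 6914 CPM, 4.57-fold (3.74 to 5.66). Of 21 measured G2/M genes 17 (81.0%) were at least 2-fold higher and 0 lower, against 34.9% and 20.5% of all genes. Mki67, a marker of dividing cells, had 801 UMIs in 28 of 29 aged and 29 UMIs in 9 of 11 young members, a ratio of 2.43 (1.68 to 3.66). Top2a, the topoisomerase of dividing chromosomes, had 213 and 3 UMIs, a ratio of 6.26 (2.11 to 30.6). The tubulin gene Tubb4b had 318 UMIs in 16 aged members and 0 in the young spleen, which makes it at least 9.34-fold higher against a floor of 3 UMIs over the 11 members. The condensin gene Smc2 had 131 and 0 UMIs, at least 3.85-fold, and the replication clamp Pcna 75 and 0 UMIs, at least 2.20-fold.

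Member by member, cycling RNA was graded: every spleen member held some, and high levels were found in a subset. S and G2/M UMIs per 1000 UMIs outside the globins had a median of 42.8 in the 13 RNA-rich aged members (6.78 to 50.5), 6.46 in the other 16 (2.15 to 101) and 5.05 in the 11 young ones (1.35 to 38.4). At 20 per 1000 or more, a limit chosen after the values were seen, lay 11 of 13, 4 of 16 and 1 of 11. Under 3000 the G2/M ratio was 2.79 (2.23 to 3.50) and the S ratio 3.25 (1.797 to 6.38), but 2 of the 16 aged members held 256 and 99 of the 493 G2/M UMIs, and 61 of the 78 S UMIs came from the second of them. The other 14 aged members had 6874 CPM of G2/M genes (5775 to 8122), next to 6914 CPM in all 11 young members and 5583 CPM (4353 to 7054) in the 9 young ones left without their own top 2. Those 2 are also the only aged spleen members under 3000 whose barcodes passed in the young brain, so that without shared barcodes the G2/M ratio was 1.01 and the S ratio 0.859. The young spleen in turn held 1 member with 20 of its 96 G2/M and 8 of its 13 S UMIs. Free RNA of the aged and young spleen libraries held 1982 and 1957 CPM of the G2/M list, below these member levels. After thinning to 500 UMIs, globins included, Mki67 or Top2a was found in 62.1% of aged spleen (42.3 to 79.3) and 45.5% of young spleen members (16.7 to 76.6), intervals that overlap, against 1.497% and 0.975% of B-like barcodes of the same libraries. Depth outside the globins was not made equal by this.

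**Figure D4:**
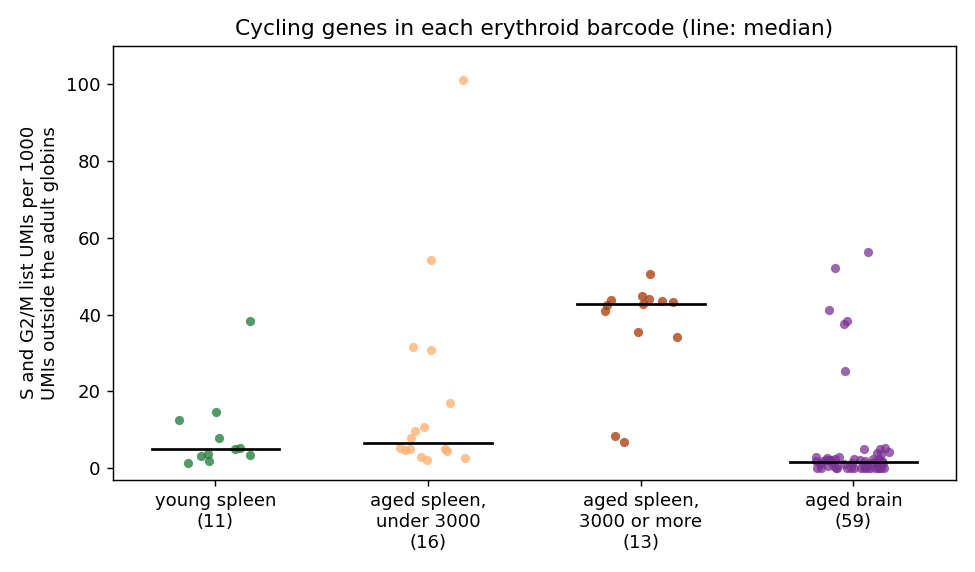
S and G2/M list UMIs per 1000 UMIs outside the adult globins for each erythroid barcode, with the group median as a line. RNA-rich aged spleen barcodes centre on 42.8, the other spleen barcodes on 6.46 and 5.05 with a few high ones, and the aged brain has 6 barcodes above 20.

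The other cell types that the sort could hold left few UMIs in spleen members. Of 45 marker genes for 11 cell types, at least 2 UMIs were found in 11 of 29 aged and 4 of 11 young members. Single aged barcodes stood out, 1 with 213 UMIs of the neutrophil genes S100a8, S100a9, Retnlg and Csf3r and 1 with 42 of NK cell genes. Without the aged members with 20 or more such UMIs, 157 of 480 genes were higher and 100 lower. B cell markers summed to 133 CPM in the aged and 144 CPM in the young members, T cell markers to 19.0 and 72.0 CPM, NK cell markers to 286 and 288 CPM and neutrophil markers to 1416 and 360 CPM. Microglia and dendritic cell markers were at 0 in the aged spleen. Scrublet, a doublet caller, marked 3.05% of the filtered aged spleen and 3.54% of the young spleen barcodes and none of the members.

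The 59 aged brain members were of 3 kinds, and the erythroid label did not hold for all of them. The ranges were drawn after the values were seen: 34 had a globin share of at least 70%, 7 of the rest had at least 10 UMIs of erythroid transcription factor genes and at least 50 of membrane genes, and 18 had neither. All 59 held at least 2 UMIs of markers of other cell types. Microglia markers summed to 9155 CPM in the members and 7991 CPM in the free RNA of that library, and red pulp macrophage markers, which microglia also express, to 12550 and 12907 CPM. Scrublet marked 0 of the 13662 aged brain barcodes, so it did not work there.

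The 34 globin-dominated barcodes held little else. Their globin share had a median of 87.1% (74.6 to 92.1), and the rest of their RNA was 399 to 1503 UMIs. Klf1 and Gata1 gave 0 UMIs, and Mki67 1. Bpgm was found in 32 of 34, at 13878 CPM, against 4753 CPM in the young spleen. The clearance list stood at 54130 CPM, next to 57328 CPM in the young spleen and 15492 CPM in RNA-rich aged spleen members, while the transcription factor list stood at 954 CPM against 8210 and 8261 CPM. Free RNA of the aged brain library held 2509 CPM of the clearance list and 879 CPM of the transcription factor list. Microglia markers stood at 6772 CPM in these barcodes and 7991 CPM in that free RNA. The part of free RNA in the values of these barcodes was not tested. Ftl1, the ferritin light chain, stood at 13401 CPM against 3601 CPM in the young spleen, and Slc4a1 at 1240 against 10947 CPM. Xpo7 and Tmcc2, high in RNA-poor spleen members, gave 1 and 3 UMIs here. Haem synthesis genes reached 20794 CPM, of which Alas2, used by the rule, made up 15261 CPM.

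The 7 factor-rich barcodes carried cell cycle RNA together with red cell genes. Their globin share was 11.9% to 54.3%, with 3457 to 6468 other UMIs. Mki67 and Car2, which did not enter the split, were found in 7 of 7. Slc4a1 in 7 of 7 and Klf1 and Gata1 in 5 each follow from how these barcodes were chosen. The G2/M list stood at 28834 CPM, next to 34015 CPM in RNA-rich aged spleen members, and the S list at 6917 against 5912 CPM. Against all 29 aged spleen members, 43 of 639 genes (6.73%) were at least 2-fold higher and 112 (17.5%) lower, with a median log2 ratio of -0.23. Membrane genes, whose UMIs were used to choose these barcodes, had a median of -0.78 (7 of 25 lower, 0 higher), ribosomal protein genes 0.58 (9 of 75 higher, 0 lower) and mitochondrial transcripts 1.06 (5 of 9 higher, 0 lower). Rsad2 had 4 UMIs in these 7 barcodes, 117 CPM against 2685 CPM in the aged spleen, and Isg15 3 UMIs, 87.6 CPM against 2019 CPM. Microglia markers stood at 3969 CPM here, below the free RNA of the library.

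The remaining 18 barcodes met the rule and carried microglia and macrophage RNA. Their globin share was 14.3% to 64.1%. Membrane genes stood at 2673 CPM and Klf1 and Gata1 at 0 UMIs, values that the split itself keeps low and that are given as a description. The microglial receptor Cx3cr1 was found in 18 of 18, but also in 7 of 7 factor-rich and 27 of 34 globin-dominated barcodes. Pooled microglia markers stood at 12776 CPM and macrophage markers at 18711 CPM, above the free RNA, and endothelial markers reached 39 UMIs in single barcodes. Single barcodes held 3 to 222 microglia and 0 to 393 macrophage UMIs. Going by the pooled levels of these markers, which did not enter the split, the data go against the erythroid label for the set, though not for each barcode. Whether these barcodes are microglia or other cells with red cell RNA in the same droplet was not tested. Ttr, a transthyretin gene of the choroid plexus, was found in all 59 members of the 3 kinds.

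**Figure D5:**
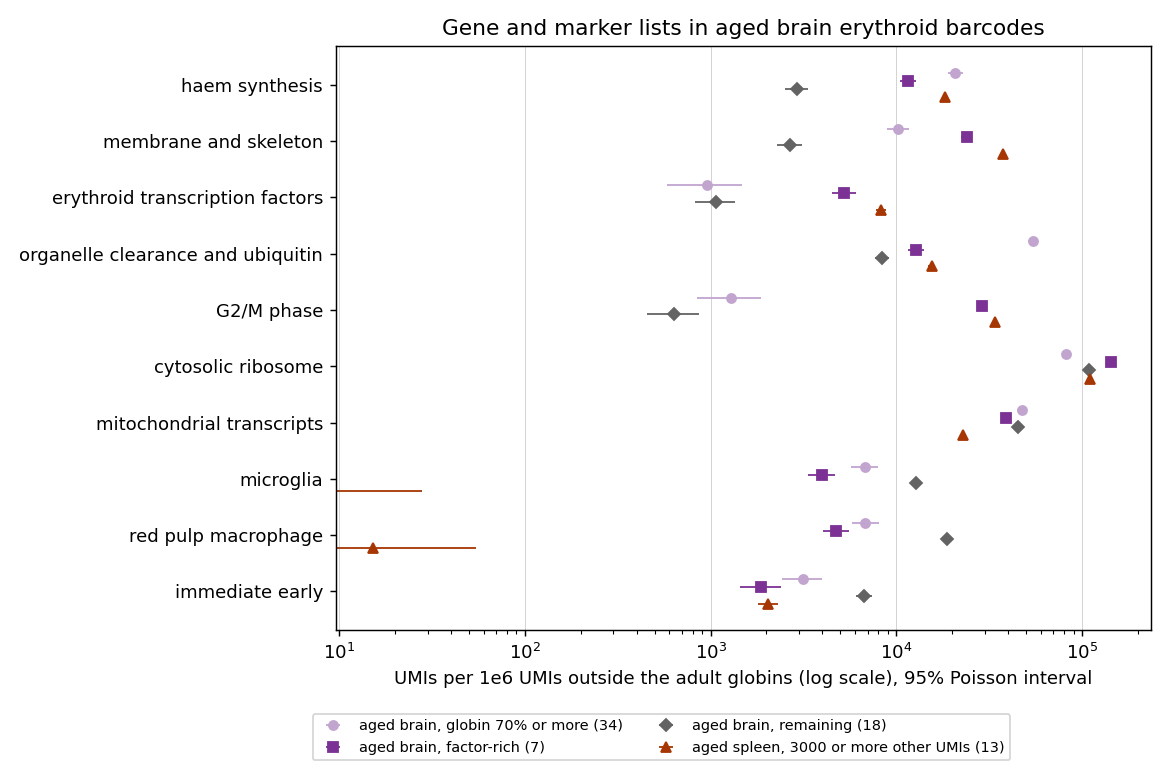
Summed level of 8 gene lists and 2 marker lists in UMIs per 1e6 UMIs outside the adult globins (log scale) with 95% Poisson intervals, for the 3 kinds of aged brain barcodes and the RNA-rich aged spleen barcodes (triangles). The factor-rich barcodes (dark squares) lie near the spleen for G2/M genes at 28834 and 34015 CPM, and the remaining barcodes (diamonds) have the most microglia marker RNA. Microglia markers had 0 UMIs in the spleen set, shown by its upper limit alone.

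Pooled over the 3 kinds, the aged brain members were higher than the aged spleen members for microglial genes and lower for membrane, haem, transcription factor and G2/M genes. From 118083 and 157537 UMIs, 869 genes reached the minimum, 135 (15.5%) were at least 2-fold higher and 324 (37.3%) lower in the brain, and the median log2 ratio was -0.46. After median-of-ratios scaling, which moved that median to 0.08, 217 were higher and 234 lower. Membrane genes had a median of -2.18 (22 of 25 lower), transcription factors -2.27 (13 of 13 lower), haem synthesis without Alas2 -2.01 (10 of 12 lower) and G2/M genes -1.87 (26 of 28 lower), with 0 higher in each. Of the 118083 brain UMIs, 62850 came from the 18 remaining barcodes. In the 7 factor-rich barcodes alone, 7 of 25 membrane, 2 of 13 transcription factor and 2 of 25 G2/M genes were lower. Membrane and transcription factor UMIs were used to choose that set. Its summed G2/M ratio to the aged spleen was 0.912 (0.851 to 0.977). All 4 measured genes of the integrated stress response were lower, among them Ppp1r15a, the phosphatase subunit that reverses it, at 110 against 863 CPM. Among the genes ranked highest were Cst3, Cx3cr1, C1qa, Sparc, C1qc, Trem2 and P2ry12, genes known from microglia, of which Cst3 and Sparc are also made by other brain cells. Cst3 had 15252 CPM in the brain and 38 CPM in the spleen, and Cx3cr1 had 406 UMIs in 52 members and 0 in the spleen, at least 181-fold. The lowest ranked were Kcnn4, Ypel4, Ppox, Prdx3, Rbm38, Clcn3, Dmtn and Cpeb4, with ratios of 0.0267 to 0.0937. Bpgm was higher in the brain, 3235 against 546 CPM or 5.93-fold (4.68 to 7.58), and so was Mkrn1, 2439 against 1212 CPM or 2.01-fold (1.67 to 2.43). The factor-rich barcodes alone gave 1.28 (0.780 to 2.04) for Bpgm and 0.674 for Mkrn1. Bpgm had 24 UMIs there, in 3 of 7 barcodes, and a single barcode held 21 of them.

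Within each library, members with more globin had more RNA of the clearance list, with Pearson's r across barcodes of 0.75 over 59 aged brain, 0.53 over 29 aged spleen and 0.54 over 11 young spleen barcodes. These are descriptions of barcodes that share a library and its free RNA. In the aged spleen, G2/M RNA per 1000 went with UMIs outside the globins at a Pearson's r of 0.42 (Spearman's rho 0.57) and with the globin share at -0.15 (Spearman's rho -0.19). The pooled G2/M level there was 36424 CPM in the 7 members with 10% to 30% globin, 32416 CPM in the 18 with 30% to 60% and 5797 CPM in the 4 with 60% to 80%, and the S level 7125, 5473 and 504 CPM.

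The authors' deposited table for the aged spleen lists Alas2 in 1 of its 15 clusters, in 100% of that cluster's cells against 0.6% of other cells, with Slc4a1 in 100%, Mki67 in 93.3% and Klf1 in 46.7%. In the authors' deposited table for the aged brain, 1 of 13 clusters lists Alas2, in 35.2% of its cells against 0.3%, and Mki67 in 54% of the same cells. The authors' deposited table for the young spleen lists Alas2 in none of its 16 clusters.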

How the data were processed

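Cells sorted for high CD45 were captured with the 10x 3' kit, version 2, at 50000 or more reads per cell, per the labels' protocols. The matrices the authors deposited hold whole-number UMI counts, not normalized or filtered, for 31053 genes, and per the file headers the software that wrote them was version 3.1.0. An older Cell Ranger, 1.3.1, and a human genome build, GRCh38, stand in the submitters' processing notes, although the gene identifiers are those of mouse. The authors' deposited cluster tables give the share of cells with each gene, printed here as percent. Coordinates are from GENCODE M21, where 30934 of 31053 identifiers were found.

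UMIs were summed over members per library. Shares have Clopper-Pearson, levels Poisson and ratios exact conditional binomial 95% intervals. A gene at 0 was set at 3 counts over the class. Thinning drew UMIs without replacement (seed 1). Doublets were marked with Scrublet in scanpy 1.11.5, and numpy 2.4.6, scipy 1.17.1 and pandas 2.3.3 were used. The summing and interval steps were tested on simulated data. Members, 23 gene lists and 11 marker lists were chosen with earlier results of these data known. Named genes are the first 12 each way (8 for brain) by the interval bound nearest to 1, leaving out globins, Alas2, immunoglobulin, ribosomal, mitochondrial and sex genes, gene models and likely RNA of other cells, plus up to 6 genes of each list with most UMIs. Epb41 and Bnip3l fell outside that rule and were chosen after their values were seen. Some named genes are not reported here.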

Additional observations from a re-analysis of the deposited data

Results flagged for a closer look

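Globin-rich barcodes also lay outside the filters, in barcodes that no comparison used. In the aged brain 40 barcodes met the globin and Alas2 conditions and held at least 500 UMIs but failed another filter, while aged spleen held 9 and young spleen 8. Too few genes failed 40, 9 and 7 of them, and mitochondrial RNA failed 1 in the young spleen. Their median globin share was 88.1%, 85.7% and 79.4%, with medians of 206.5, 189 and 195 genes. The gene minimum of 250 thus sets how many globin-dominated barcodes are counted in each library.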

How the results depend on the processing

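No paired analysis was possible because each group has 1 library, and for the same reason no library could be left out. Values below are ratios or counts of aged against young spleen unless the brain is named. The S phase ratio was 14.33 with at least 1000 UMIs and with at least 2 Alas2 UMIs, 12.23 with globin of at least 20%, 2.46 with each member weighted alike, 1.52 when thinned to 200 UMIs outside the globins, 3.25 under 3000 and 0.859, reversed, without shared barcodes. The G2/M ratio was 7.66 with globin of at least 5%, 7.46 per 1e6 of all UMIs, 3.63 with median-of-ratios scaling, 3.16 with members alike, 3.47 thinned, 2.79 under 3000 and 1.01 without shared barcodes. The share ratio without shared barcodes was 12.17, where the number of filtered barcodes shrank too. Genes at least 2-fold higher and lower numbered 90 and 62 of 252 without members holding 2 or more UMIs of other cell types, 3 and 6 of 101 without shared barcodes, 304 and 49 per 1e6 of all UMIs, 0 and 2 of 13 thinned, 322 and 218 of 1372 at 20 UMIs, 117 and 55 of 285 at 100 UMIs and 6 and 6 of 116 under 3000. With members alike 54 were lower. Of lists with at least 5 measured genes, 3 of 12 lay above the median of all genes, against 8 of 13 with globin of at least 5%, 9 of 18 at 20 UMIs and 0 thinned, where none could be measured.

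With globin of at least 5%, iron (0.53), erythroid identity (0.55) and ribosomal genes (-0.42) reversed in median log2 ratio, as did Hsp90aa1 (0.881). The identity list also reversed without shared barcodes (0.31) and under 3000 (0.16). Without shared barcodes the ratios that reversed were Hmgb2 0.566, Ube2c 0.925, Xpo7 1.32, Tmcc2 1.36, Alad 0.881, Pim1 1.44, Hagh 0.944, Nt5c3 1.398, Cdkn1b 1.32, Atf4 0.661, Eif2ak1 1.25, Rsad2 1.23, Rps29 0.612, Rplp1 0.936 and Rplp0 0.991. Thinned, they were Lpin2 1.39, Rpl41 0.948, Rplp1 0.683 and mt-Nd4 1.01. Under 3000 they were Xpo7 1.03, Tmcc2 1.06, Pim1 1.11, Hagh 0.930, Nt5c3 1.16, Cdkn1b 1.05, Rsad2 1.12, Rps29 0.659, Rplp1 0.876 and Rplp0 0.740. For brain against aged spleen, 455 genes were higher and 710 lower of 2221 at 20 UMIs, 57 and 206 of 521 without members with 20 or more UMIs of other cell types, and 217 higher with median-of-ratios scaling. The globin-dominated barcodes alone gave 62 higher, and Gpx1 reversed at 1.04. The factor-rich barcodes alone gave 43 and 112, and reversed Mkrn1 0.674, Rrm2 1.31, Hmgb2 1.10, Top2a 1.60 and Cenpf 1.25. The settings under 3000, with 20 or more UMIs of other cell types, by brain range and with median-of-ratios scaling in the brain were chosen after seeing the data. The causes were not tested, except that fewer members and genes entered the smaller sets. In all, 148 of the list medians stayed, 30 moved and 5 reversed. The aged brain without members holding 2 or more UMIs of other cell types was not run, as 0 members were left. Depth limited the young spleen most, with 11 members and 13885 UMIs.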

Other observations

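Some stress lists differed between spleen members of similar RNA content and others did not. Under 3000 UMIs outside the globins, the integrated stress response list, a pathway through which red cells slow protein synthesis when haem is short, stood at 5274 CPM in 16 aged against 3313 CPM in 11 young members, a ratio of 1.59 (1.13 to 2.28). Over all members that ratio was 1.05 (0.775 to 1.45). Under 3000 its 2 measured genes had intervals that included 1, with Ppp1r15a at 1.49 (0.880 to 2.63) and Eif2ak1 at 0.956 (0.545 to 1.72). The antioxidant list stood at 16877 against 25135 CPM, a ratio of 0.671 (0.582 to 0.775), and immediate early genes at 1250 against 2305 CPM, a ratio of 0.542 (0.322 to 0.914). The immediate early ratio rested on 32 UMIs in each set, and none of its genes reached the minimum of 50 UMIs. Free RNA of the aged and young spleen libraries held 11068 and 12505 CPM of that list, and its part in the ratio was not tested. Heat shock genes gave 1.16 (0.691 to 1.99) and p53 targets 1.05 (0.570 to 2.02), intervals that included 1. In the aged brain, mitochondrial transcripts stood at 47406 CPM in the globin-dominated barcodes, 38873 CPM in the factor-rich and 44964 CPM in the remaining ones, against 22866 CPM in RNA-rich aged spleen members, and the free RNA of that library held 97723 CPM. Immediate early genes stood at 6730 CPM in the remaining 18 brain barcodes, 1868 CPM in the factor-rich and 3148 CPM in the globin-dominated ones. These are values of single libraries, with intervals for counting error only.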
